A study of Homo sapiens with 4 samples.

Results

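The 10 genes described here encode chaperones and cochaperones of the heat shock response: HSPA1A, HSPA1B, HSPA6, HSPA8, HSP90AA1, HSPH1, DNAJB1, HSPB1, BAG3 and HSPD1. They were chosen by symbol from a table of 19739 coding genes, with earlier results of these data known. Counts and medians over them, set beside those of all genes, are therefore descriptions and not tests. All 10 were found. Of these, 9 encode proteins that work in the cytosol and nucleus, while HSPD1 encodes HSP60, the chaperonin of the mitochondrial matrix. Transcripts were measured by RNA sequencing in cells labelled as 2 human liver cancer cell lines, in 4 groups with 1 library each: treated cells labelled HepG2, untreated cells labelled HepG2, treated Huh7 cells and untreated Huh7 cells. Treated cells had received the preparation named RSL3@O2-ICG NBS with low-frequency ultrasound for 24 h, and untreated cells nothing. RSL3 is an inhibitor of the lipid peroxide-reducing enzyme GPX4, and the labels do not spell out the other letters. No group analysed here received RSL3, the carrier or ultrasound alone, so their shares in a difference cannot be told apart.

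In the cytosolic heat shock response, unfolded proteins draw chaperones away from the transcription factor HSF1, which then assembles into trimers and binds heat shock elements, short promoter sequences made of alternating GAA and TTC units. Its targets include inducible HSP70, HSP90, HSP40 and HSP110 genes. HSP70 binds exposed hydrophobic stretches of a client protein, J-domain proteins deliver clients and start ATP hydrolysis, and nucleotide exchange factors release the client. Heat shock proteins are often abundant in tumour cells before any added stress.

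With 1 library per group there was no test within a line, no SD, and no test of a difference between lines. Levels are in FPKM, which the authors computed by dividing fragments by transcript length and by library size. Differences are log2((treated FPKM + 1)/(untreated FPKM + 1)), and a gene was counted when it was at least 2-fold higher or lower and reached 1 FPKM in either library. Each library held roughly 22900000 to 26400000 fragments, as inferred from low values. That inference is approximate: per library, 43.3% to 59.0% of low values lay within 5% of a multiple of the value taken as 1 fragment. Intervals given for ratios are exact 95% intervals that cover counting error only, and they rest on these inferred fragments. The libraries labelled HepG2 lacked hepatocyte transcripts: all 13 hepatocyte markers were below 1 FPKM in both, with a summed level of 0.468 FPKM in the treated and 0.599 FPKM in the untreated library, and ALB was listed at 0 in both. In Huh7 the same 13 markers, all above 1 FPKM, summed to 1517 FPKM in treated and 2009.9 FPKM in untreated cells. The 6 fibroblast markers summed to 10.2 FPKM in treated and 38.0 FPKM in untreated Huh7, of which LUM gave 8.05 and 31.7 FPKM, and to 4.27 FPKM in treated and 7.65 FPKM in untreated cells labelled HepG2, where COL1A1 was at least 2-fold higher and PDGFRB lower. The monocyte marker CD14 stood at 2.21 FPKM in treated and 15.1 FPKM in untreated Huh7, and below 1 FPKM in both libraries labelled HepG2. The part of these shifts in the results was not tested, and in bulk RNA fewer cells of a type and less RNA per cell cannot be told apart.

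In both lines the treated cells had more inducible HSP70 transcript than the untreated cells, while HSPA8, the constitutive HSP70 gene, did not exceed its untreated level in either line. Of the 10 genes, 3 were at least 2-fold higher in treated cells labelled HepG2 (HSPA1A, HSPA1B and HSPA6), where 6.70% of all 11843 genes considered were. In Huh7, 3 were at least 2-fold higher (HSPA1A, HSPA1B and HSP90AA1), where 3.88% of 11945 genes were. Counting the near-identical HSPA1A and HSPA1B as 1 gene left 2 of 9 in each line. None of the 10 was at least 2-fold lower in either line, against 2.43% of genes under the HepG2 label and 2.19% in Huh7. All 10 genes reached 1 FPKM in at least 1 library of each line, HSPA6 only in the treated ones, and their median difference was 0.39 under the HepG2 label and 0.52 in Huh7, against 0.09 and 0.10 for all genes. The Huh7 count depended on scaling: with median-of-ratios size factors, under which the median of all genes was −0.03, 0 of the 10 passed 2-fold, with HSPA1A at 0.86, HSPA1B at 0.89 and HSP90AA1 at 0.92. Under the HepG2 label the same 3 genes passed with size factors, where the median of all genes was −0.02.

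**Figure D1:**
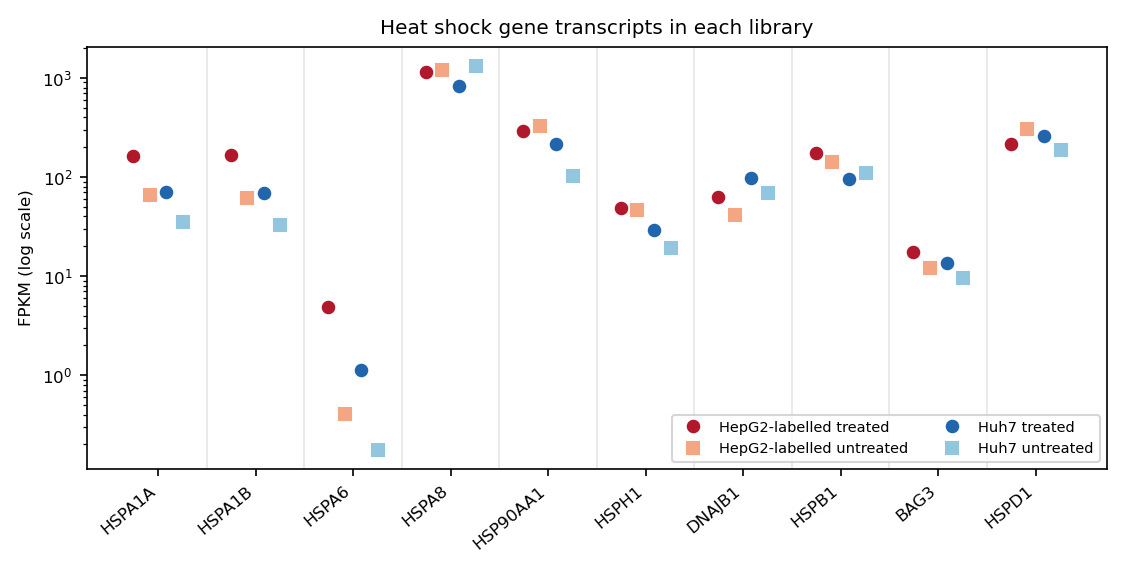
Level of each of the 10 genes in FPKM (log axis) in the 4 libraries, 1 point per library, circles for treated and squares for untreated cells. HSPA1A, HSPA1B and HSPA6 are higher in treated than in untreated cells of both lines, and HSPA8 is the highest of the 10 genes in every library.

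HSPA1A and HSPA1B are the adjacent, nearly identical genes of stress-inducible HSP70 on chromosome 6. HSPA1A stood at 162 FPKM in treated and 65.8 FPKM in untreated cells labelled HepG2, and at 71.2 FPKM in treated and 35.0 FPKM in untreated Huh7 cells. HSPA1B stood at 167 FPKM in treated and 61.3 FPKM in untreated cells labelled HepG2, and at 68.3 FPKM in treated and 32.8 FPKM in untreated Huh7 cells. Both treated libraries lay above both untreated libraries for each gene, by a narrow margin between treated Huh7 and untreated cells labelled HepG2. The differences of HSPA1A were 1.28 under the HepG2 label and 1.00 in Huh7, and those of HSPA1B were 1.43 and 1.04. HSPA1A was just inside the 2-fold limit in Huh7, and just short of it (0.97) when each library was rescaled to the same sum. Their open reading frames shared 1922 of 1926 bases, and 69.9% of the 100-base windows of the HSPA1A transcript occurred unchanged in HSPA1B transcripts, so how the fragments were split between them is uncertain. Of the HSPA1B exon bases, 36.5% also belong to the annotated gene AL671762.1. The sum of HSPA1A and HSPA1B does not depend on how fragments were split between them, but fragments assigned to AL671762.1 could still change it. That sum stood at 328 FPKM in treated and 127 FPKM in untreated cells labelled HepG2 (2.58 times as high). In Huh7 it stood at 139.5 FPKM in treated and 67.8 FPKM in untreated cells (2.06 times).

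HSPA6, which encodes HSP70B′, is an HSP70 gene known for very low expression without stress and strong induction by heat. It stood at 4.91 FPKM in treated and 0.401 FPKM in untreated cells labelled HepG2, about 269 and 24 fragments. In Huh7 it stood at 1.13 FPKM in treated and 0.177 FPKM in untreated cells, about 61 and 11 fragments. HSPA6 was the lowest of the 10 genes in all 4 libraries and had the largest plain FPKM ratios of the 10 in both lines. The plain ratio was 12.2 under the HepG2 label (interval 8.18 to 19.8) and 6.37 in Huh7 (interval 3.34 to 13.5). The added 1 FPKM understates such low values: the log2 difference was 2.08 under the HepG2 label and 0.85 in Huh7, and with 0.1 FPKM added it was 3.32 and 2.15, past 2-fold in both. Of all genes, 0.498% had a higher log2 difference than HSPA6 under the HepG2 label, and 6.48% in Huh7. Of its 100-base windows, 27.6% also occurred in the transcript of its relative HSPA7, so HSPA7 fragments could be counted here.

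HSPA8 encodes HSC70, the constitutive HSP70 of protein folding, vesicle uncoating and chaperone-mediated autophagy. It stood at 1155 FPKM in treated and 1212 FPKM in untreated cells labelled HepG2, and at 829 FPKM in treated and 1313 FPKM in untreated Huh7 cells. The level in treated Huh7 cells was the lowest of the 4, and the other 3 lay close together. The difference was −0.07 under the HepG2 label and −0.66 in Huh7, where 94.1% of all genes had a higher difference. The make-up of the HSP70 transcripts therefore differed between treated and untreated cells. HSPA1A and HSPA1B together made up 22.1% of the FPKM of HSPA1A, HSPA1B, HSPA6 and HSPA8 in treated and 9.49% in untreated cells labelled HepG2, and 14.4% in treated and 4.91% in untreated Huh7 cells. These shares are taken within a library, so no rescaling of the libraries moves them. In Huh7 the gain of HSPA1A and HSPA1B, 71.7 FPKM, was smaller than the deficit of HSPA8, and the 4 genes summed to 970 FPKM in treated and 1381 FPKM in untreated cells. Under the HepG2 label the 4 genes summed to 1488 FPKM in treated and 1340 FPKM in untreated cells.

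The bases before the RefSeq transcription start of the inducible HSP70 genes are shown here because the 3 genes moved together under the HepG2 label and heat shock elements are known in their promoters. The sequences are RefSeq windows of GRCh38.p14, read 5′ to 3′ on the strand of the gene and cut to bases that no GENCODE 29 exon covers. Capitals mark the fixed bases of matches to GAANNTTC or TTCNNGAA, the 2 arrangements of a pair of inverted units, each of which reads the same on both strands.
HSPA1A, chr6:31815293-31815463, plus strand: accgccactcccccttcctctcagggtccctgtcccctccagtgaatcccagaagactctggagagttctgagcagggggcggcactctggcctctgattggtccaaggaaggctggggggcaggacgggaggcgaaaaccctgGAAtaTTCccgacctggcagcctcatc
HSPA1B, chr6:31827488-31827734, plus strand: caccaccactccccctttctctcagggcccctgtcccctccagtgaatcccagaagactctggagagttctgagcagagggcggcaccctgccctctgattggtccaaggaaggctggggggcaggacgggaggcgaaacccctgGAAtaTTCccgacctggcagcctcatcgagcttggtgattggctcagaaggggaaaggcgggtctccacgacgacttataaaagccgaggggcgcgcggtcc
HSPA6, chr1:161524290-161524539, plus strand: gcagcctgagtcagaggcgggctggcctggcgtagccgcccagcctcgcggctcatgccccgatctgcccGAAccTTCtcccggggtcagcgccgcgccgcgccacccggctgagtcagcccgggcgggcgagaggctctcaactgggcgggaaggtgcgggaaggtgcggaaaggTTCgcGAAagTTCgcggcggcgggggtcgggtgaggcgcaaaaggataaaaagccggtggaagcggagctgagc

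The windows of HSPA1A and HSPA1B each held 1 such match at nearly the same place, 106 to 99 and 105 to 98 bases before the start, and were 93.6% identical over their 250 bases. That of HSPA6 aligned to HSPA1A at 47.7% identity and held 3 matches. A pair of them overlapped in a run of 3 alternating units (GAANNTTCNNGAA or TTCNNGAANNTTC, which are each other's reverse complement) 74 to 62 bases before the start. Over all 10 genes, which have 14 windows, 8 windows held a match to the pair and 4 a match to the run of 3, while of 35116 RefSeq windows of the same length 11.6% and 0.441% did. The runs belonged to HSPA6, HSPA8, HSP90AA1 and HSPD1, of which HSPA6 was at least 2-fold higher under the HepG2 label, HSP90AA1 was so in Huh7, and HSPA8 and HSPD1 were in neither line. The HSP90AA1 stretch below holds a run of 3 and a separate pair, and that of HSPD1 holds 2 overlapping runs, 4 units in all. Short stretches are printed because annotated exons cover the windows of the last 3 genes in part or whole.
HSPA6, chr1:161524466-161524478, plus strand: TTCgcGAAagTTC
HSPA8, chr11:123062354-123062366, minus strand: GAAagTTCcaGAA
HSPA8, chr11:123062179-123062191, minus strand: TTCtgGAAggTTC
HSP90AA1, chr14:102087105-102087132, minus strand: TTCcgGAAggTTCgggaggcTTCtgGAA
HSPD1, chr2:197500068-197500085, minus strand: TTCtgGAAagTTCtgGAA
The windows of HSPH1 and BAG3 held no match to these letters. A match is a description of the sequence and not a measured binding site.

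**Figure D2:**
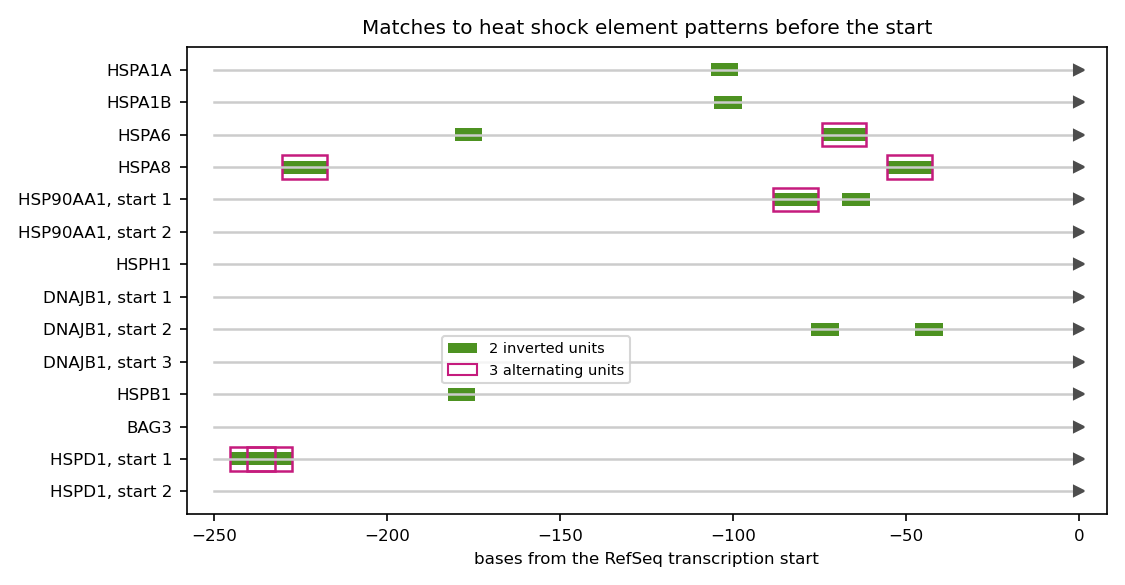
Positions of matches in the 250 bases before each RefSeq start of the 10 genes (x axis, bases from the start; arrowheads mark the start). Filled boxes are pairs of inverted units and open boxes runs of 3 alternating units; 8 of the 14 windows hold a pair and 4 a run of 3.

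HSP90AA1 encodes HSP90 alpha, the stress-inducible cytosolic HSP90, a dimeric chaperone of kinases and steroid receptors. It stood at 288 FPKM in treated and 330.1 FPKM in untreated cells labelled HepG2, and at 214 FPKM in treated and 101 FPKM in untreated Huh7 cells. Untreated Huh7 cells had the lowest level of the 4 libraries, and the level in treated Huh7 cells was still below both libraries labelled HepG2. The difference was −0.20 under the HepG2 label and 1.07 in Huh7. HSP90AB1, the constitutive cytosolic HSP90, stood at 389 FPKM in treated and 607 FPKM in untreated cells labelled HepG2, and at 313 FPKM in treated and 359 FPKM in untreated Huh7 cells. HSP90AA1 therefore made up 42.6% of the cytosolic HSP90 transcripts in treated and 35.2% in untreated cells labelled HepG2, and 40.6% in treated and 22.0% in untreated Huh7 cells, higher in the treated cells of both lines. Of the HSP90AA1 exons, 3.75% lie opposite an exon of WDR20, and the labels do not say whether strand was kept. The one noncoding transcript listed over the locus of any of the 10 genes was WDR20-OT1 at HSP90AA1. It stood at 0.476 FPKM in treated and 0.0283 FPKM in untreated cells labelled HepG2. In Huh7 it stood at 0.524 FPKM in treated and 0.183 FPKM in untreated cells. All these levels are under the limit of 1 FPKM, too low for a difference to be read from them.

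The cochaperones DNAJB1, BAG3 and HSPH1 had differences above 0 and under 2-fold in both lines, except HSPH1 under the HepG2 label with size factors. DNAJB1 encodes the main HSP40, the J-domain partner that brings clients to HSP70. It stood at 63.3 FPKM in treated and 40.9 FPKM in untreated cells labelled HepG2, and at 96.8 FPKM in treated and 68.7 FPKM in untreated Huh7 cells, with differences of 0.62 and 0.49. Of its exon bases, 6.21% lie opposite other annotated genes. BAG3, a nucleotide exchange factor of HSP70 that also directs clients to selective autophagy, stood at 17.6 FPKM in treated and 12.2 FPKM in untreated cells labelled HepG2. In Huh7 BAG3 stood at 13.5 FPKM in treated and 9.50 FPKM in untreated cells, and its differences, 0.50 and 0.47, were of like size in the lines. HSPH1 encodes HSP105, an HSP110-class exchange factor of the HSP70 disaggregase. It stood at 48.5 FPKM in treated and 46.3 FPKM in untreated cells labelled HepG2, and at 28.9 FPKM in treated and 19.4 FPKM in untreated Huh7 cells. HSPH1 differed by 0.06 under the HepG2 label, below 0 with size factors, and by 0.55 in Huh7.

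HSPB1 encodes HSP27, a small heat shock protein that holds unfolding clients without using ATP. It stood at 174 FPKM in treated and 143 FPKM in untreated cells labelled HepG2, and at 94.4 FPKM in treated and 110.4 FPKM in untreated Huh7 cells. Its differences, 0.28 and −0.22, had opposite signs in the lines. HSPD1 stood at 218 FPKM in treated and 304 FPKM in untreated cells labelled HepG2, and at 259.5 FPKM in treated and 188 FPKM in untreated Huh7 cells. Its differences, −0.48 and 0.46, were also opposite in sign. Of HSPD1 exons, 6.62% lie opposite an exon of HSPE1, which encodes its cofactor HSP10.

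**Figure D3:**
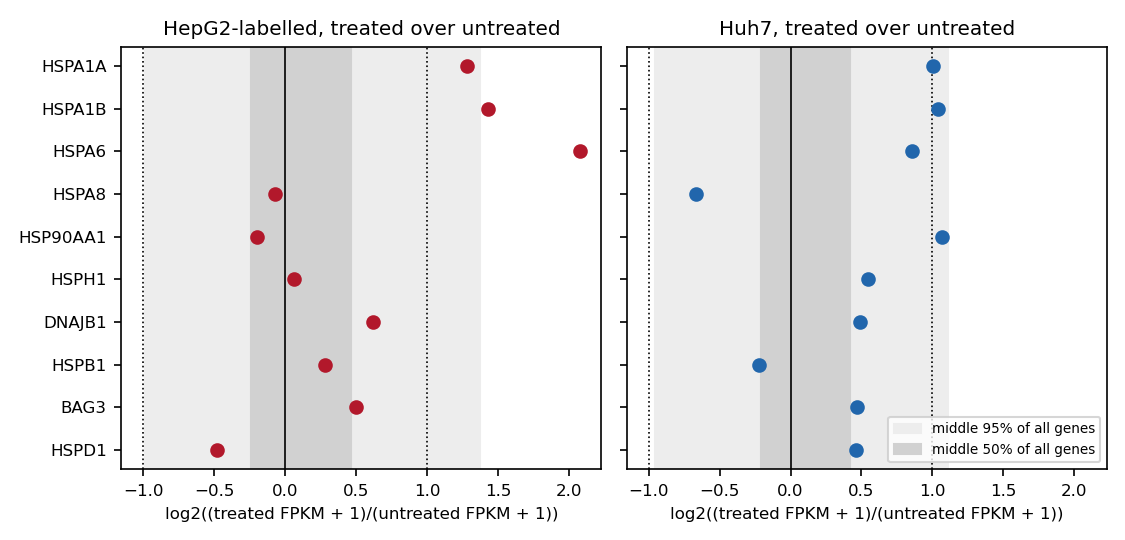
Difference between treated and untreated cells (x axis, log2 with 1 FPKM added) for the 10 genes in the libraries labelled HepG2 and in Huh7, with the middle 95% and 50% of all genes shaded and dotted lines at 2-fold. HSPA1A, HSPA1B and HSPA6 lie to the right under the HepG2 label, and HSPA1A, HSPA1B and HSP90AA1 reach the 2-fold line in Huh7.

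Across the lines, 2 of the 10 genes, HSPA1A and HSPA1B, were at least 2-fold higher in both, against 0.716% of 10758 genes considered in both. That number was 3 with 0.1 FPKM added, 1 with equal sums and 0 with size factors. A difference above 0 in both lines was found for 6 of the 10 genes (HSPA1A, HSPA1B, HSPA6, HSPH1, DNAJB1 and BAG3), against 38.5% of all genes, and for 5 with size factors, which left HSPH1 out. Opposite signs in the lines were found for 3 of the 10 (HSP90AA1, HSPB1 and HSPD1), near the 38.2% of all genes. With size factors 4 of the 10 had opposite signs. The shares of all genes given here for both lines were computed without rescaling and with 1 FPKM added. The summed level of the 10 genes was nearly level under the HepG2 label, 2297 FPKM in treated and 2216 FPKM in untreated cells, and in Huh7 it was 1677 FPKM in treated and 1879 FPKM in untreated cells. HSPA8 was the largest single part of each of these 4 sums. Without it the other 9 genes summed to 1142 FPKM in treated and 1004 FPKM in untreated cells labelled HepG2, and to 848 FPKM in treated and 566 FPKM in untreated Huh7 cells.

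The one test of treatment run here asked whether the mean difference between treated and untreated cells over both lines was other than 0. It used limma on log2(FPKM + 1), with cell line as a block and 1 residual degree of freedom. That 1 degree reflects how the difference varied between the lines, not replicate spread. The SEs and p-values rest mostly on variance shared across genes, with a median of 7.56 total degrees of freedom. The test called 0 of the 10 genes and 0% of all 13030 genes at a Benjamini-Hochberg adjusted p of 0.05. An unadjusted p under 0.05 was found for 4 of the 10 and 1534 of all genes. HSPA1B had a limma estimate of 1.23 (SE 0.216, adjusted p = 0.212) and HSPA1A one of 1.14 (SE 0.209, adjusted p = 0.212). HSPA6 had an estimate of 1.46 (SE 0.370, adjusted p = 0.259), and DNAJB1 one of 0.55 (SE 0.207, adjusted p = 0.366). The other 6 genes had estimates between −0.37 for HSPA8 and 0.48 for BAG3.

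Levels in the untreated cells of the lines were set side by side. Of the 9 genes that reached 1 FPKM in either untreated library, HSP90AA1 (−1.69) and HSPH1 (−1.21) were at least 2-fold lower in untreated Huh7 than in untreated cells labelled HepG2, where 17.2% of 12446 genes were, and 0 were at least 2-fold higher, where 17.5% were. The share lower, 2 of 9, is near that of all genes. HSPA1A (−0.89) and HSPA1B (−0.88) were lower in untreated Huh7 by somewhat less than 2-fold. DNAJB1 (0.73) and HSPA8 (0.12) were higher there. The order by level was led by HSPA8 in every library, and BAG3 and HSPA6 were last in every library. HSP90AA1 was second under the HepG2 label in treated and untreated cells, while in Huh7 HSPD1 was second in both. With no replicates, the spread of neighbouring levels in this order is unknown. Among all coding genes HSPA1B ranked 254 in treated and 997 in untreated cells labelled HepG2, and 819 in treated and 1954 in untreated Huh7 cells.

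The genes that act on or beside these chaperones are read against the shares of all genes past 2-fold, 6.70% higher and 2.43% lower under the HepG2 label and 3.88% higher and 2.19% lower in Huh7. Of the heat shock factors and their regulator, 0 of 4 passed under the HepG2 label and 1 in Huh7, HSF4, a factor of the eye lens, with 5.45 FPKM in treated and 1.84 FPKM in untreated cells. HSF1, the main factor of the response, stood at 15.4 FPKM in treated and 10.3 FPKM in untreated cells labelled HepG2, and at 13.5 FPKM in treated and 9.89 FPKM in untreated Huh7 cells (0.53 and 0.42). HSBP1, a small protein that binds the trimerised factor, had differences of −0.27 and −0.62. Of the other HSP70 and HSP110 genes, 0 of 10 measured passed under the HepG2 label, and in Huh7 1 of 9 was at least 2-fold lower, HSPA2, a testis-enriched HSP70, with 3.68 FPKM in treated and 9.17 FPKM in untreated cells. HSPA12A, a distant relative of HSP70, differed by 0.88 under the HepG2 label and 0.91 in Huh7. HSPA5, the HSP70 of the endoplasmic reticulum, had differences of opposite sign, 0.77 and −0.75. No other HSP90 gene passed.

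Of the other J-domain genes 0 of 11 passed under the HepG2 label and 1 of 11 in Huh7, DNAJA4, with 5.96 FPKM in treated and 1.66 FPKM in untreated cells (1.39). DNAJA4 differed by 0.77 under the HepG2 label. No small heat shock protein, BAG gene or HSP90 cochaperone passed in either line, except that HSPB7, at 23.1 FPKM in treated and 46.0 FPKM in untreated cells labelled HepG2 (−0.96), was past 2-fold lower with size factors. Among mitochondrial chaperones and proteases 1 of 10 passed, LONP1, the matrix protease that degrades oxidised proteins, with 85.6 FPKM in treated and 27.0 FPKM in untreated cells labelled HepG2 (1.63), and 0 of 10 passed in Huh7 (LONP1 at 0.61). Of 17 other genes known to be induced by heat, 0 passed in either line. The nearest were SQSTM1, the autophagy receptor p62, at 0.85 under the HepG2 label and 0.99 in Huh7, and DEDD2 at 0.75 and 0.97. With 0.1 FPKM added, HSPA1L under the HepG2 label and HSPA12A, DNAJB4 and DEDD2 in Huh7 also passed 2-fold. The medians of those 17 genes were 0.07 and −0.10, beside 0.39 and 0.52 for the 10 described above, and 0.09 and 0.10 for all genes.

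The chaperonin CCT folds actin and tubulin in the cytosol, and its helper prefoldin hands it new chains. Of the 14 genes of CCT and prefoldin, 11 had a difference below 0 in each line, where 43.1% of all genes did under the HepG2 label and 41.2% in Huh7, with medians of −0.41 under the HepG2 label and −0.29 in Huh7, and 0 passed 2-fold. The 8 CCT subunits, set apart after their values were seen, were all below 0 in both lines and under each scaling tried. They summed to 1404 FPKM in treated and 2022 FPKM in untreated cells labelled HepG2, and to 1456 FPKM in treated and 1931 FPKM in untreated Huh7 cells. CCT3 had the lowest difference under the HepG2 label, −0.69, with 280.3 FPKM in treated and 454 FPKM in untreated cells. Of 33 proteasome genes, 29 under the HepG2 label and 26 in Huh7 were below 0, beside the same 43.1% and 41.2% of all genes, with medians of −0.33 and −0.12, and 1 passed 2-fold (2 with size factors or 0.1 FPKM added, PSMC1 being the other), PSMA4, with 53.4 FPKM in treated and 112 FPKM in untreated cells labelled HepG2. In Huh7 the proteasome gene farthest from 0 was PSMB2, at 73.4 FPKM in treated and 39.5 FPKM in untreated cells (0.88).

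**Figure D4:**
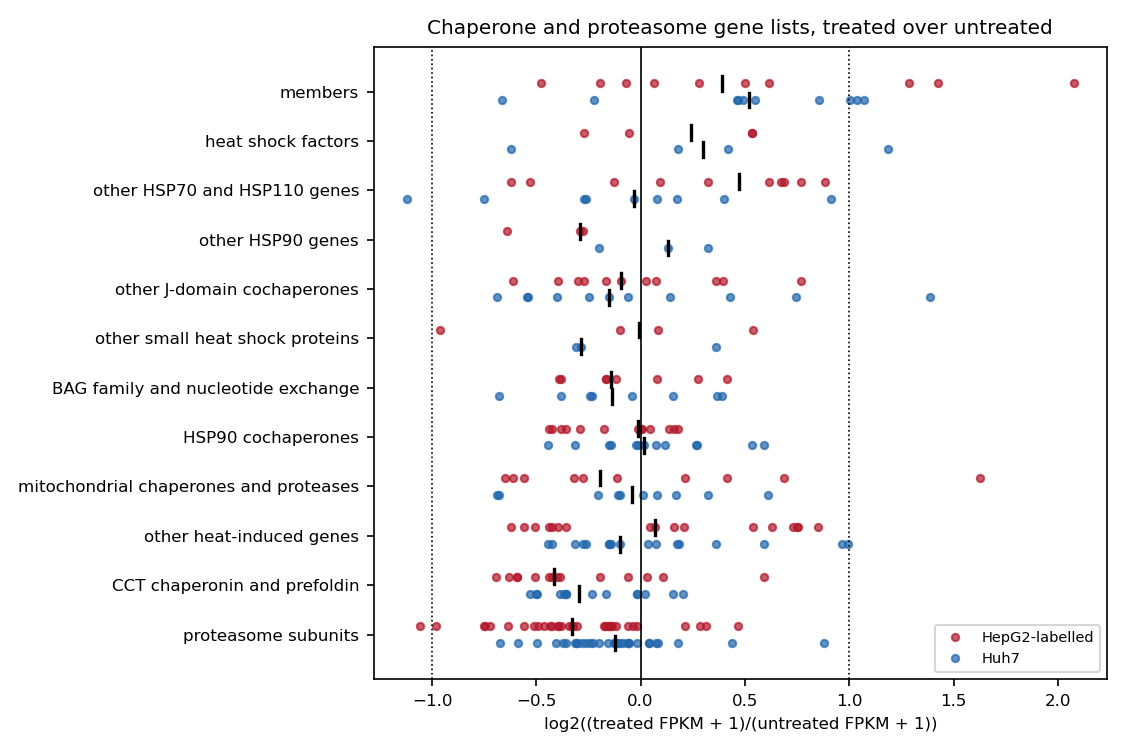
Difference between treated and untreated cells (x axis, log2 with 1 FPKM added) of each measured gene of 12 lists, 1 point per gene, for the libraries labelled HepG2 (upper row of each list) and Huh7 (lower row); black bars mark medians and dotted lines 2-fold. The medians of the 10 members are 0.39 and 0.52, and those of CCT and prefoldin −0.41 and −0.29.

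The coding genes whose levels over the 4 libraries were most like those of HSPA1A, by Euclidean distance of centred log2(FPKM + 1) over 10033 genes, were ADGRE5 (distance 0.160), ENO2 (0.203), GRN (0.234), NLRP1 (0.239) and FBF1 (0.255). HSPA1B lay at 0.114. ENO2, which encodes the gamma enolase of neurons, stood at 21.7 FPKM in treated and 7.32 FPKM in untreated cells labelled HepG2, and at 8.09 FPKM in treated and 3.12 FPKM in untreated Huh7 cells. GRN, which encodes progranulin, stood at 215 FPKM in treated and 109.9 FPKM in untreated cells labelled HepG2, and at 110.3 FPKM in treated and 54.1 FPKM in untreated Huh7 cells. With 4 libraries such likeness describes these libraries only.

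In the authors' deposited tables of Gene Ontology enrichment, the genes listed for treated against untreated cells labelled HepG2 included HSPA1A, HSPA1B and HSPA6 of the 10, and those for Huh7 included HSPA6 alone. The authors' deposited table for the HepG2 label gave 17 of 125 genes of the term response to unfolded protein in their list, with a corrected p-value of 1, and 23 of 170 genes of response to heat, also with a corrected p-value of 1. The authors' deposited table for Huh7 gave 8 of 125 genes of response to unfolded protein (corrected p-value 1) and 23 of 170 genes of response to heat (corrected p-value 0.840). Of all terms with a corrected p-value under 0.05 in the authors' deposited Gene Ontology tables, 104 of 635 under the HepG2 label and 10 of 381 in Huh7 named a member. Of all terms whatever their p-value, 564 of 12517 under the HepG2 label and 142 of 11546 in Huh7 did. None of the terms under 0.05 was one of the heat shock, heat response or protein folding terms that name a member. In the authors' deposited tables of KEGG pathways, 11 pathways named a member in each line, and 0 of these had a corrected p-value under 0.05. Hardly any pathway did: 0 of all 275 under the HepG2 label and 1 of all 271 in Huh7.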

How the data were processed

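RNA was sequenced from 4 libraries, 1 per group. The authors deposited FPKM per coding gene and per noncoding transcript, per the file headers, and enrichment tables with p-values per term, per the file headers. Per the submitters' processing notes, which give no roles, the tools were HISAT2, GATK, SAMtools 0.1.18, Picard 1.96, StringTie 1.3.1, Cuffdiff 2.1.1 and Bowtie2 2.2.8. Genome build, gene annotation and strandedness: not given in the sources used here. Listed positions overlapped GENCODE 29 (GRCh38) for 99.8% of shared identifiers.

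The members and lists were chosen with earlier results of these data known. Depth was inferred from the FPKM step of 1 fragment in low genes; ratio intervals are exact Clopper-Pearson. The limma fit (version 3.58.1 under R 4.3.3, trend on) was tested on simulated data. The changes planted there were larger than the estimates given above for the 10 genes, so recovery at those sizes was not tested. Genes named are all members, up to 3 of each list with the largest absolute difference or any past 2-fold, the 5 most like HSPA1A, and terms and noncoding transcripts at members. Alternatives were other pseudocounts (0.1), filters (none, 5 FPKM), scalings, a 1.5-fold limit, and HSPA1A and HSPA1B summed. All 10 genes matched RefSeq promoter windows of GRCh38.p14.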

Additional observations from a re-analysis of the deposited data

Results flagged for a closer look

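Of the 10 genes, 3 had differences of opposite sign between treated and untreated cells of the lines, where 38.2% of all genes did. The 3 of 10 are near that share. With size factors, which added HSPH1, the number was 4, and the share of all genes was not computed. The difference between the lines was not tested, with 1 library per group. HSP90AA1 differed by 1.07 in Huh7 and by −0.20 under the HepG2 label. HSPB1 differed by −0.22 in Huh7 and by 0.28 under the HepG2 label. HSPD1 differed by 0.46 in Huh7 and by −0.48 under the HepG2 label. All values are log2 differences with 1 FPKM added, and HSPB1 and HSPD1 were under 2-fold in both lines.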

How the results depend on the processing

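The count of members past 2-fold stayed within 1.5 times its value of 3 under the HepG2 label in all 7 alternatives, between 2 and 4. It was 4, all higher, at a 1.5-fold limit, where 19.2% of all genes were higher. It was 3 with 0.1 FPKM added, where 11.2% of all genes were higher. In Huh7 the count was 0 with size factors, where 2.5% of all genes were higher and 3.11% lower. It was 5 at a 1.5-fold limit (4 higher and HSPA8 lower), where 15.4% of all genes were higher and 7.63% lower. In the other alternatives it was between 2 and 4. The 4 came with 0.1 FPKM added, where 8.12% of all genes were higher. The 2 members lower in untreated Huh7 were the same in all 3 scalings and pseudocounts tried. limma called 0 members in all 8 settings and, of all genes, 1 with a 5 FPKM filter, 1 with equal sums and 0 otherwise. Size factors took the share of higher among all 2-fold genes to 61.5% under the HepG2 label, where it was 73.4%, and to 44.6% in Huh7, where it was 64.0%. Without a block for cell line, limma gave HSPA1A an adjusted p of 1, as it did all 13030 genes tested. The limma fit with cell line as a block pairs treated with untreated cells of a line. No replicate could be left out or paired by number, because each group holds 1 library. Depth limits HSPA6 most, with about 11 fragments in untreated Huh7.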
